A study of Solanum lycopersicum with 8 samples.

Results

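The comparison set tomato seedlings of the procera mutant proΔGRAS against the cultivar M82 when both had received paclobutrazol and no GA3. It set against each other 4 of the series' 8 RNA-seq libraries: 2 of proΔGRAS and 2 of M82, each from young leaves. Seedlings of both genotypes, the M82 controls included, were treated on 3 days with 10 mg/l paclobutrazol, which blocks the synthesis of gibberellin (GA). The other 4 libraries, 2 of proΔGRAS and 2 of M82, came from seedlings that also received 100 µM GA3 and were sampled 3 hours later. They are not among the 4 compared and are used here to measure the same genes again. All 8 libraries were fitted in 1 model, so these 4 also enter the estimate of each gene's spread behind every p-value. The series describes the 2 libraries of a group as biological replicates but does not say whether a library came from 1 plant or from several, and the labels give the proΔGRAS lesion by its name only. The p-values reflect only how much these libraries vary.

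PROCERA encodes the DELLA protein of tomato, a nuclear repressor of GA responses. In plants that have DELLA, GA binds the receptor GID1, and the complex marks DELLA for degradation, which frees growth-promoting transcription factors that DELLA holds inactive. When GA synthesis is inhibited, DELLA accumulates in such plants and represses these responses. Loss of DELLA frees GA responses from the need for the hormone. GA signalling is also known to act back on the genes that make GA, which DELLA keeps active.

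The count table gives genes by identifier without names, and 0 of its 34722 identifiers matched the tomato gene table used here, with or without the version suffix. Genes are therefore described by identifier, with no name or role, and the chromosome is the number that the identifier carries. The PROCERA transcript, leaf marker genes and lists of named GA, wall, hormone or light genes were not analysed here for that reason.

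Library totals in the 4 libraries were 18483028 and 17782393 counts in proΔGRAS, and 14696338 and 14395465 counts in M82. Libraries are called by the number the table gives them, 1 and 3 in both genotypes. Levels are CPM, counts relative to the library total after scaling by a TMM factor, so that 1 CPM stood for 12.4 to 19.3 counts in these libraries. M82 library 3 stood apart among the 4: 45.5% of its counts fell on 100 genes, against 39.5% and 37.7% in proΔGRAS libraries 1 and 3 and 36.9% in M82 library 1. With GA3 the shares were 50.3% and 41.3% in M82 libraries 2 and 1, against 31.4% and 37.3% in proΔGRAS libraries 1 and 3. The log2 CPM of the 2 libraries of a group correlated across genes, which are not independent replicates, with r = 0.970 in proΔGRAS and 0.945 in M82. Leaf tissue was sequenced in bulk, so fewer cells of a type and less RNA per cell cannot be told apart.

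Most transcripts did not differ detectably between the genotypes under paclobutrazol. With all 8 libraries fitted, those that did were mostly higher in the mutant, a skew that depended on M82 library 3, as described below. Of 18340 genes tested, 54 were higher in proΔGRAS (0.294%) and 18 were lower (0.0981%) by edgeR's quasi-likelihood test, with a Benjamini-Hochberg adjusted p below 0.05, here "called". The genes that rose had a median log2 fold change of 2.21, and the genes that fell had a median of -2.50, against -0.01 over all genes tested. Setting genes at 0 in a whole group to their bounds left both medians the same. The called differences were large: 37 of the 54 higher genes and 15 of the 18 lower genes differed by at least 4-fold, and 10 and 4 by at least 16-fold. Among genes with counts in both genotypes, the log2 fold changes ran from 1.36 to 5.80 for the higher genes and from -5.59 to -1.78 for the lower ones. Mean levels of the higher genes ran from 1.77 to 281 CPM in proΔGRAS, against 0 to 94.2 CPM in M82. Mean levels of the lower genes ran from 0.186 to 38.8 CPM in proΔGRAS, against 4.61 to 183 CPM in M82.

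In each of the 72 genes the 2 proΔGRAS libraries lay on one side of both M82 libraries. Such separation alone was common. With the 4 libraries compared, 19.3% of all genes tested lay apart with proΔGRAS higher and 17.6% with proΔGRAS lower. A 2-fold or larger fitted difference was seen in 1375 genes higher and 701 genes lower. At an unadjusted p under 0.05, 1201 genes were higher and 670 lower. DESeq2, a second count model, called 296 higher (1.61%) and 116 lower (0.632%), among them all 72.

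The number of calls hung on single libraries. Without proΔGRAS library 1 edgeR called 2 genes, without proΔGRAS library 3 it called 1, without M82 library 1 it called 172, and without M82 library 3 it called 18, split into 8 higher and 10 lower. Without M82 library 1 or 2 with GA3, which lend their spread to the same model, the counts were 44 and 43.

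**Figure D1:**
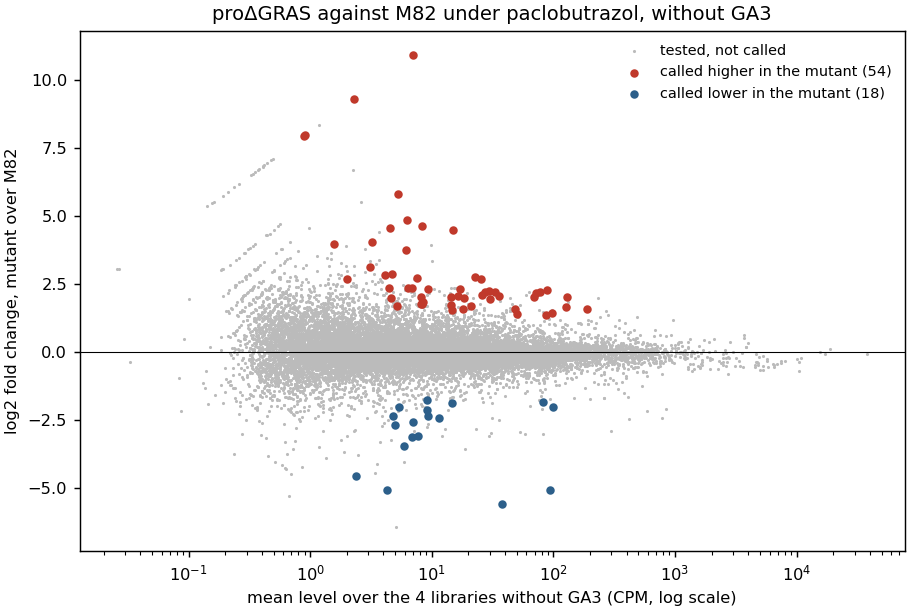
Log2 fold change of proΔGRAS over M82 without GA3 (y axis) against the mean level over the 4 libraries in CPM (x axis, log scale), 1 point a gene. Red points are the 54 genes called higher in the mutant and blue points the 18 called lower, grey points are genes not called, and fold changes of genes without counts in a group are fitted values. The called genes lie mostly above 1 CPM, and few of the most abundant genes are among them.

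Calls were spread over the range of levels. Of the genes tested, 7898 had a mean of 1 to 10 CPM over the 4 libraries, and 0.456% of these were called. The share was 0.449% of 6906 genes at 10 to 100 CPM and 0.223% of 1347 genes above 100 CPM. Below 1 CPM it was 0.0914% of 2189 genes, where the median standard error (SE) of a log2 fold change was 0.845, against 0.410 at 1 to 10 CPM.

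The clearest difference was that of Solyc10g083300.1, on chromosome 10, a gene near silence in M82 and well expressed in the mutant. It stood at 28.0 and 29.6 CPM in proΔGRAS libraries 1 and 3, against 1.05 and 1.53 CPM in M82 libraries 1 and 3. The groups lay far apart and the 2 libraries of each genotype lay close together (log2 fold change 4.49, SE 0.29; edgeR adjusted p = 0.00077). It was the only one of the 72 genes called without each of the 8 libraries in turn, with a highest adjusted p of 0.0157 without proΔGRAS library 3. With GA3 it stood at 22.9 and 26.5 CPM in proΔGRAS, against 1.88 and 2.25 CPM in M82 (edgeR adjusted p = 0.00324).

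Among the genes with counts in every proΔGRAS library and none in any of the 4 M82 libraries, with and without GA3, the most abundant were Solyc11g008420.1 and Solyc01g081250.2. Solyc11g008420.1, on chromosome 11, had 225 and 296 counts in proΔGRAS without GA3, or 11.7 and 16.6 CPM, against 0 and 0 counts in M82. That is at least 130-fold higher, taking 3 counts over the 2 M82 libraries as the floor (edgeR adjusted p = 0.00539). With GA3 it had 283 and 227 counts in proΔGRAS and again 0 and 0 in M82. Solyc01g081250.2, on chromosome 1, had 108 and 65 counts in proΔGRAS without GA3, against 0 and 0 counts in M82. It was at least 42.6-fold higher by the same floor (edgeR adjusted p = 0.0295), and with GA3 had 125 and 60 counts in proΔGRAS against 0 and 0 in M82. Bounds of this kind cover counting error only. Both genes passed the filter on low counts through their proΔGRAS libraries alone.

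Genes with no count in one genotype were counted in both directions. Across the whole table, 11 genes had 0 counts in both M82 libraries and at least 10 in both proΔGRAS libraries, and 0 genes had the reverse pattern. Leaving out 1 library loosens this rule, which then rests on 1 library of that genotype. The numbers could therefore only stay or rise. On the looser rule 108 genes had no count in M82 and 4 none in proΔGRAS without M82 library 1, and 23 and 1 without M82 library 3. The numbers were 18 and 7 without proΔGRAS library 1, and 32 and 5 without proΔGRAS library 3. Of the 11, 5 had no count in the 2 M82 libraries with GA3 either, 10 passed the filter on low counts and 4 were called. The 10 passed through their proΔGRAS counts, since their M82 counts were too low for the filter. Passing it and being called are therefore no separate support for the pattern by which the genes were chosen. The M82 libraries also held fewer counts in total than the proΔGRAS libraries, and the part of this in the pattern was not tested. Besides the pair above, Solyc03g098300.1, on chromosome 3, had 29 and 38 counts in proΔGRAS, at least 16.8-fold higher than M82 (edgeR adjusted p = 0.0338). With GA3 this gene was detected in M82 too, with 36 and 34 counts in proΔGRAS and 6 and 7 counts in M82. Solyc11g011980.1, on chromosome 11, had 24 and 41 counts in proΔGRAS, at least 16.3-fold higher (edgeR adjusted p = 0.0338), and with GA3 had 89 and 72 counts in proΔGRAS against 2 and 3 in M82. Solyc04g078340.2, on chromosome 4, had 13 and 23 counts in proΔGRAS, at least 9.05-fold more than M82, and did not pass the test (edgeR adjusted p = 0.225). Without M82 library 3, only Solyc11g008420.1 of the 4 was called, with adjusted p-values of 0.00434 to 0.0899. Without proΔGRAS library 1 it was again the only one (0.0369 to 0.192), and without proΔGRAS library 3 none was (0.0735 to 0.138). Without any 1 of the 4 libraries with GA3, 2 were called, Solyc11g008420.1 and Solyc01g081250.2.

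The next genes by fold change were also low in M82 and at several CPM or more in the mutant. Solyc10g085880.1, on chromosome 10, stood at 9.48 and 11.4 CPM in proΔGRAS, against 0.196 and 0.162 CPM in M82 (log2 fold change 5.80, SE 0.93; edgeR adjusted p = 0.0412). Solyc04g006950.2, on chromosome 4, stood at 15.6 and 8.45 CPM in proΔGRAS, against 0.131 and 0.727 CPM in M82 (log2 fold change 4.87, SE 0.74; edgeR adjusted p = 0.0338). In both genes the lowest mutant library lay more than 10-fold above the highest M82 library. Solyc10g018190.1 stood at 14.6 and 17.7 CPM in proΔGRAS, against 0.849 and 0.404 CPM in M82 (log2 fold change 4.64, SE 0.68; edgeR adjusted p = 0.0323). Solyc08g082980.2, on chromosome 8, had closely matched mutant libraries, at 8.49 and 9.01 CPM, against 0.261 and 0.484 CPM in M82 (log2 fold change 4.56, SE 0.69; edgeR adjusted p = 0.0338).

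Further genes stood at 2.80 to 11.9 CPM in the mutant libraries, again far above M82. Solyc09g082550.2 stood at 5.33 and 6.89 CPM in proΔGRAS, against 0.392 and 0.323 CPM in M82 (log2 fold change 4.06; edgeR adjusted p = 0.0494). Solyc05g009120.2 stood at 3.11 and 2.80 CPM in proΔGRAS, against 0.131 and 0.242 CPM in M82 (log2 fold change 3.97; edgeR adjusted p = 0.0323). Solyc12g087830.1, on chromosome 12, stood at 11.9 and 11.1 CPM in proΔGRAS, against 1.31 and 0.323 CPM in M82 (log2 fold change 3.76; edgeR adjusted p = 0.0295). In this gene the M82 libraries differed from each other more than the mutant libraries did. Solyc00g138060.2, whose identifier carries no chromosome (00), stood at 6.06 and 5.09 CPM in proΔGRAS, against 0.914 and 0.323 CPM in M82 (log2 fold change 3.12; edgeR adjusted p = 0.0412). Solyc01g094910.2 stood at 8.70 and 7.84 CPM in proΔGRAS, against 0.784 and 1.53 CPM in M82 (log2 fold change 2.85; edgeR adjusted p = 0.0244).

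With the leading 3 above, these made up the 12 highest fold changes of called genes that averaged 1 CPM or more in the 4 libraries. That minimum left out Solyc03g098300.1 and Solyc11g011980.1. The 12 calls were not equally secure. Without proΔGRAS library 1, 2 of the 12 kept a call and adjusted p-values reached 0.267. Without proΔGRAS library 3, 1 kept it, with values up to 0.172. Without M82 library 1 or 3 the numbers were 7 and 3, with values up to 0.138 and 0.246. Without any 1 of the 4 libraries with GA3, 9 kept it.

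**Figure D2:**
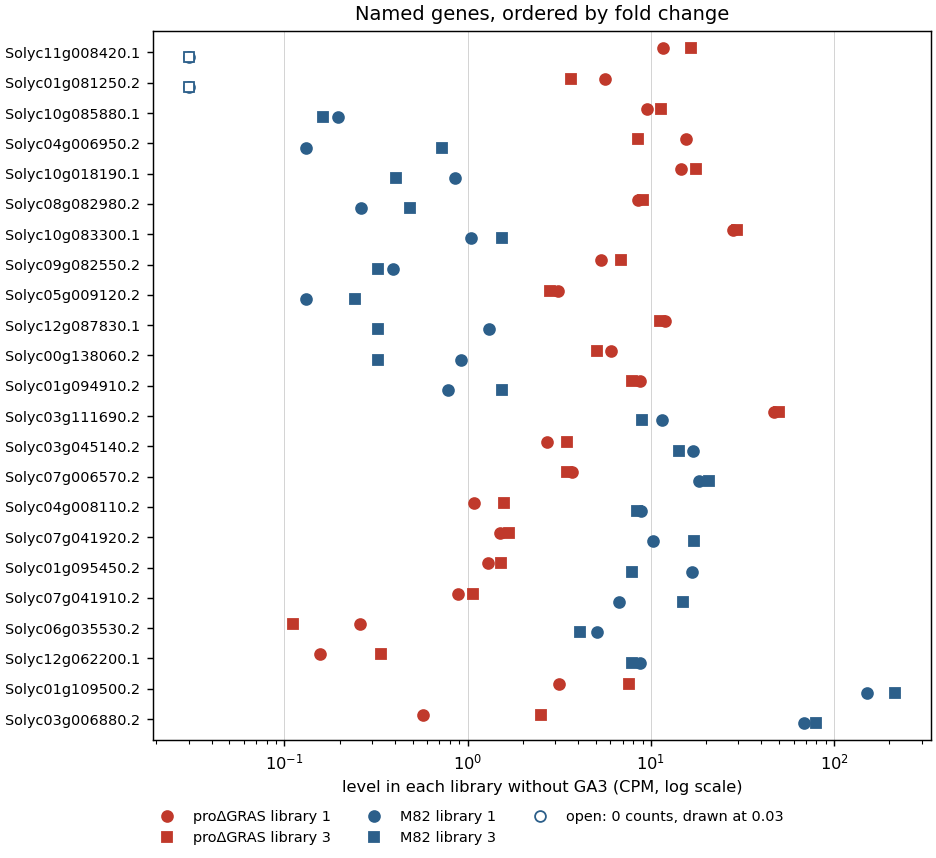
Level of each of the 23 genes chosen by fold change or p-value in the 4 libraries without GA3, in CPM on a log scale (x axis), with genes ordered by fold change from the top (higher in the mutant) to the bottom (lower). Red symbols are proΔGRAS and blue symbols M82, circles library 1 and squares library 3, and open symbols at the left edge mark 0 counts. The 2 genotypes do not overlap in any of the 23 genes, which was a condition of their choice.

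Among more abundant genes, Solyc03g111690.2, on chromosome 3, had one of the 3 smallest p-values of the higher genes. It stood at 46.7 and 50.3 CPM in proΔGRAS, against 11.4 and 8.88 CPM in M82 (log2 fold change 2.25, SE 0.23; edgeR adjusted p = 0.0132). Without proΔGRAS library 1 or 3 its adjusted p was 0.154 and 0.0868. The most abundant of the 54 higher genes was Solyc01g100770.2, on chromosome 1, chosen here after its values were seen. It stood at 293 and 270 CPM in proΔGRAS, against 95.9 and 92.4 CPM in M82 (log2 fold change 1.58; edgeR adjusted p = 0.0471). This call was lost in each of the 8 fits that left out 1 library, with adjusted p-values of 0.0623 to 0.325.

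Among the 18 genes that were lower in the mutant, some were abundant in M82 and far lower in proΔGRAS. Solyc03g006880.2, on chromosome 3, stood at 0.570 and 2.52 CPM in proΔGRAS, against 68.4 and 79.3 CPM in M82. This 48.1-fold difference was the largest of the 18 (log2 fold change -5.59, SE 0.69; edgeR adjusted p = 0.0236). Solyc01g109500.2, on chromosome 1, stood at 3.16 and 7.61 CPM in proΔGRAS, against 151 and 215 CPM in M82, the highest M82 mean of the 18 (log2 fold change -5.09, SE 0.71; edgeR adjusted p = 0.0323). In both genes proΔGRAS library 3 held the more, and it was still far under either M82 library.

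Others were at moderate levels in M82 and close to the detection floor in the mutant, where 3 counts stood for 0.155 and 0.168 CPM in the 2 libraries. Solyc12g062200.1, on chromosome 12, stood at 0.155 and 0.336 CPM in proΔGRAS, against 8.75 and 7.91 CPM in M82 (log2 fold change -5.06, SE 0.55; edgeR adjusted p = 0.0185). Solyc06g035530.2, on chromosome 6, stood at 0.259 and 0.112 CPM in proΔGRAS, against 5.09 and 4.12 CPM in M82 (log2 fold change -4.57, SE 0.72; edgeR adjusted p = 0.0357). The 2 M82 libraries were close to each other in both genes, and the mutant values rest on few reads.

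Solyc07g041910.2 and Solyc07g041920.2, which follow each other in identifier order on chromosome 7, had much the same pattern. The first stood at 0.880 and 1.06 CPM in proΔGRAS, against 6.66 and 14.9 CPM in M82 (log2 fold change -3.46, SE 0.52; edgeR adjusted p = 0.0323). The second stood at 1.502 and 1.68 CPM in proΔGRAS, against 10.3 and 17.1 CPM in M82 (log2 fold change -3.10, SE 0.49; edgeR adjusted p = 0.0357). Both were higher in M82 library 3 than in M82 library 1, while the mutant libraries were alike. Solyc07g041900.2 and Solyc07g041930.2, on either side of the pair, were not called. Solyc07g041900.2 stood at 21.6 and 35.3 CPM in proΔGRAS, against 24.5 and 42.9 CPM in M82. The library kit does not mark strand, so reads of overlapping neighbours, if these genes overlap, could not be told apart.

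The remaining genes of the lower group named by fold change were Solyc01g095450.2 and Solyc04g008110.2. Solyc01g095450.2 stood at 1.30 and 1.51 CPM in proΔGRAS, against 16.7 and 7.83 CPM in M82 (log2 fold change -3.12; edgeR adjusted p = 0.0412). Solyc04g008110.2 stood at 1.09 and 1.57 CPM in proΔGRAS, against 8.82 and 8.40 CPM in M82 (log2 fold change -2.69; edgeR adjusted p = 0.0323). Of the 8 genes with the lowest fold changes, 0 kept a call without proΔGRAS library 1 (adjusted p-values of 0.192 to 0.384) or without proΔGRAS library 3 (0.0868 to 0.193). Without M82 library 3, 2 kept it, and without M82 library 1, 6 did, with values up to 0.122 and 0.0532. Without M82 library 1 or 2 with GA3, 6 kept it in each case, with values up to 0.0632 and 0.0692.

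The 3 smallest p-values among the lower genes were those of Solyc12g062200.1, described above, and of 2 genes with smaller folds. Solyc07g006570.2 stood at 3.73 and 3.47 CPM in proΔGRAS, against 18.2 and 20.7 CPM in M82 (log2 fold change -2.43, SE 0.27; edgeR adjusted p = 0.0185). Solyc03g045140.2 stood at 2.69 and 3.47 CPM in proΔGRAS, against 17.0 and 14.3 CPM in M82 (log2 fold change -2.34, SE 0.27; edgeR adjusted p = 0.0185). Without proΔGRAS library 1 the adjusted p was 0.192 for each, and without proΔGRAS library 3 it was 0.130 and 0.118. A further 2 lower genes exceeded 100 CPM in M82 and were chosen after their values were seen. Solyc05g006420.2 stood at 34.3 and 43.3 CPM in proΔGRAS, against 131 and 188 CPM in M82 (log2 fold change -2.04; edgeR adjusted p = 0.0238). Solyc03g083560.1 stood at 31.2 and 40.3 CPM in proΔGRAS, against 102 and 157 CPM in M82 (log2 fold change -1.85; edgeR adjusted p = 0.0396). Neither was called without proΔGRAS library 1 or 3, with adjusted p-values of 0.131 to 0.393. Solyc03g083560.1 also lost its call without M82 library 3 and without either M82 library with GA3, with values of 0.0713 to 0.0899.

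The genes called without GA3 mostly kept their direction in the 4 libraries with GA3. There, 47 of the 54 higher genes were higher in proΔGRAS, with a median log2 fold change of 1.49. All 18 lower genes were lower, with a median of -1.84. The proΔGRAS libraries lay apart from both M82 libraries in the same direction for 44 of the 54 and for 18 of the 18. Over all genes tested with GA3, 24.6% lay apart with proΔGRAS higher and 25.2% with proΔGRAS lower, and the median log2 fold change was 0.01. The 2 comparisons share no library, but they share the estimate of each gene's spread.

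At the threshold, 17 of the 54 higher genes were also called higher with GA3, where 0.191% of all genes tested were, and 7 of the 18 lower genes were also called lower, where 0.164% were. None was called in the opposite direction. Both tests use the same estimate of each gene's spread, so the calls with GA3 are not independent of those without. In all, 35 genes were called higher and 30 lower with GA3. Under scaling by library totals alone these numbers were 56 and 11, and the genes called in both sets were 18 higher and 5 lower. These calls also hung on single libraries: edgeR called 0 genes with GA3 without M82 library 2 with GA3, where 1396 genes had an unadjusted p under 0.05, against 2699 with all 8 libraries. Of the genes named above, Solyc11g008420.1, Solyc01g081250.2, Solyc10g085880.1, Solyc04g006950.2, Solyc10g018190.1, Solyc08g082980.2, Solyc10g083300.1, Solyc11g011980.1, Solyc12g087830.1 and Solyc01g094910.2 were called higher in both sets, and Solyc12g062200.1, Solyc07g041910.2, Solyc07g041920.2, Solyc07g006570.2 and Solyc03g045140.2 were called lower in both.

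Solyc10g085880.1 was the most variable of these with GA3, at 33.6 and 6.06 CPM in proΔGRAS against 0.111 and 0.0702 CPM in M82. Solyc01g094910.2 stood at 14.8 and 13.6 CPM in proΔGRAS with GA3, against 1.38 and 2.04 CPM in M82 (log2 fold change 3.06; edgeR adjusted p = 0.0191). Its mutant libraries with GA3 lay above those without. Solyc03g045140.2, among the lower genes, hardly moved, at 3.17 and 2.77 CPM in proΔGRAS with GA3 against 15.6 and 13.2 CPM in M82 (log2 fold change -2.28; edgeR adjusted p = 0.0193). Solyc12g062200.1 had 0 and 0 CPM in proΔGRAS with GA3 and 4.04 and 7.37 CPM in M82 (edgeR adjusted p = 0.0173).

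**Figure D3:**
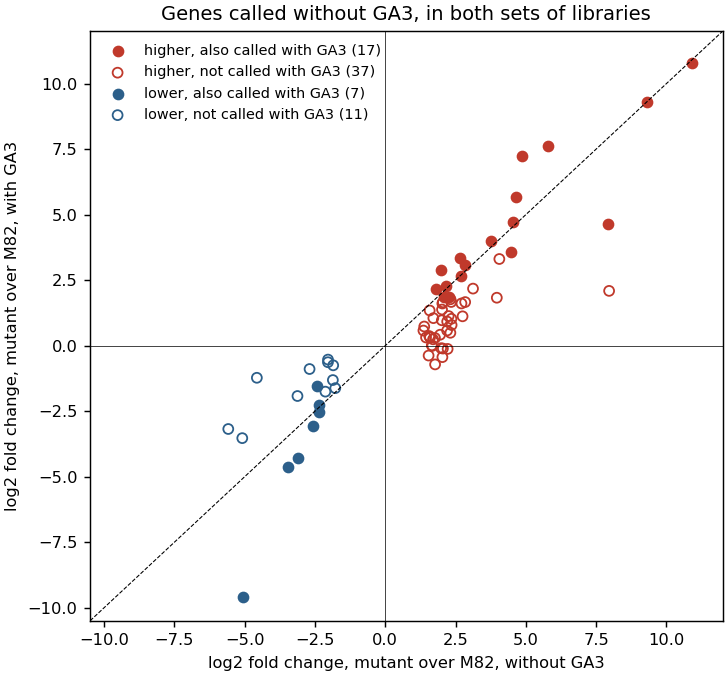
Log2 fold change of proΔGRAS over M82 without GA3 (x axis) and with GA3 (y axis) for the 72 genes called without GA3, 1 point a gene, with the line of equal values dashed. Red is higher and blue lower in the mutant without GA3, and filled points, 17 and 7, were also called with GA3. All blue points and 47 of the 54 red points keep their sign, and the outermost points, at 0 counts in a group, are fitted values.

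For some genes the gap between the genotypes was wide without GA3 and small with it. Of the 54 higher genes, 14 had a log2 fold change between -0.5 and 0.5 with GA3, a limit chosen after the values were seen, and 0 of the 18 lower genes did. The nearest lower genes lay just outside that limit: Solyc05g006420.2 had a log2 fold change of -0.53 with GA3 and Solyc03g120620.2 one of -0.63, so the split between higher and lower genes rests on where the limit was set. Solyc09g091430.2, on chromosome 9, stood at 189 and 194 CPM in proΔGRAS without GA3, against 55.8 and 65.9 CPM in M82. With GA3 it stood at 222 and 180 CPM in proΔGRAS, against 200.4 and 199 CPM in M82. The M82 libraries with GA3 thus lay at the level of the mutant in this gene, and those without GA3 far under it. EdgeR did not call this difference between the M82 groups (adjusted p = 0.0557). Solyc10g005210.2, on chromosome 10, stood at 7.72 and 7.95 CPM in proΔGRAS without GA3, against 2.48 and 2.42 CPM in M82. With GA3 it stood at 11.51 and 11.54 CPM in proΔGRAS, against 11.99 and 11.2 CPM in M82. The M82 groups with and without GA3 differed by edgeR in this gene (adjusted p = 0.0471). Both genes were those of the 14 with log2 fold changes nearest 0 with GA3. Others of the 14 ran up to 0.49, in Solyc04g081790.2, and down to -0.44, in Solyc04g017720.2.

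Solyc04g081870.2, on chromosome 4, stood at 118 and 140.2 CPM in proΔGRAS without GA3 and at 35.0 and 20.3 CPM in M82. With GA3 it stood at 110 and 106 CPM in proΔGRAS and at 126 and 109 CPM in M82. In Solyc07g062710.2, on chromosome 7, the order of the genotypes turned round. Its log2 fold change was 1.77 without GA3 (edgeR adjusted p = 0.0357) and -0.72 with GA3, where it was not called (edgeR adjusted p = 0.267). The change of the genotype difference with GA3 was tested as an interaction. With edgeR it was called in 0 genes, where 689 of all genes tested had an unadjusted p under 0.05. The smallest adjusted p among the 72 was 0.546, that of Solyc07g062710.2 included, and the 14 genes had 0.546 to 0.994. DESeq2 called the interaction in 20 genes, among them 6 of the 72: Solyc02g087960.2, Solyc04g007690.2, Solyc04g017720.2, Solyc04g081870.2, Solyc07g062710.2 and Solyc09g091430.2. In all 6 the gap between proΔGRAS and M82 was smaller or reversed with GA3, with log2 differences of -2.47 for Solyc07g062710.2 and -1.62 for Solyc09g091430.2 (DESeq2 adjusted p = 0.00193 and 0.0101). The call for these genes thus depended on the tool, and the genes had been chosen by their difference without GA3. The 2 M82 libraries without GA3 enter both the genotype difference and any GA3 response of M82, so the values of M82 with GA3 are given only side by side. Of the 14 genes, 1 kept its call without GA3 when M82 library 3 was left out (adjusted p-values of 0.0472 to 0.160), and 0 when either proΔGRAS library was (0.102 to 0.347). Without either M82 library with GA3, 4 of the 14 kept it.

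M82 levels with GA3 are set beside those without for 4 lower genes. EdgeR called no difference between these M82 groups in any of them. The adjusted p-values were 0.147 for Solyc03g006880.2, 0.152 for Solyc06g035530.2, 0.410 for Solyc07g041910.2 and 0.386 for Solyc07g041920.2. Solyc03g006880.2, at 68.4 and 79.3 CPM in M82 without GA3, stood at 0.284 and 1.33 CPM in proΔGRAS with GA3 and 5.47 and 9.05 CPM in M82. Solyc06g035530.2 stood at 0.0474 and 0.266 CPM in proΔGRAS with GA3, against 0.442 and 0.281 CPM in M82 (edgeR adjusted p = 0.507). All 4 of these values were a small part of the M82 level without GA3. Solyc07g041910.2 was the reverse case, at 1.04 and 1.54 CPM in proΔGRAS with GA3, against 20.8 and 43.9 CPM in M82, above both M82 libraries without GA3. Solyc07g041920.2 again followed it, at 1.33 and 2.93 CPM in proΔGRAS and 26.9 and 56.0 CPM in M82 with GA3.

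**Figure D4:**
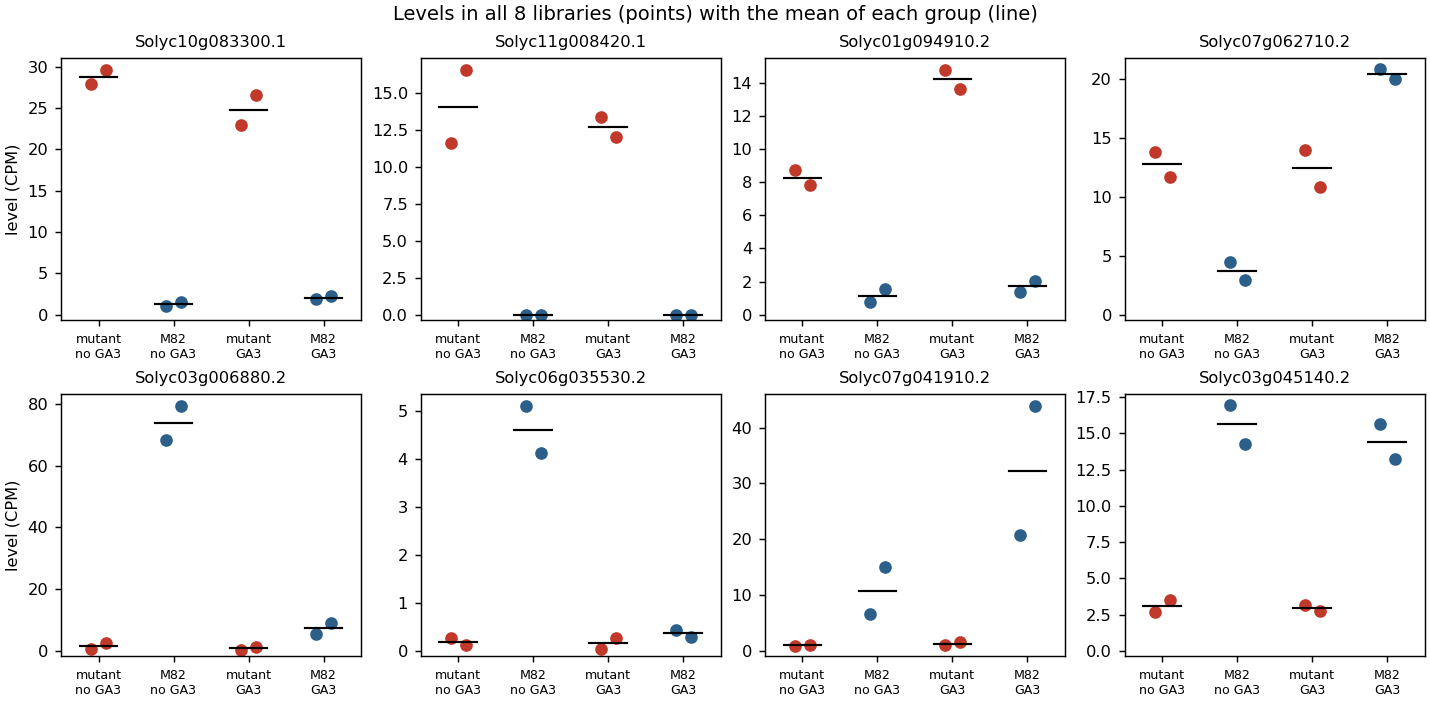
Level in CPM (y axis, linear, a scale of its own in each panel) of 8 genes in the 8 libraries, with the mutant (red) and M82 (blue) without GA3 on the left and with GA3 on the right, points for libraries and lines for group means. Solyc10g083300.1, Solyc11g008420.1, Solyc01g094910.2, Solyc07g041910.2 and Solyc03g045140.2 lie apart between the genotypes in both sets. Solyc07g062710.2 is higher in the mutant without GA3 and lower with it, where the difference was not called. Solyc03g006880.2 and Solyc06g035530.2 are highest in M82 without GA3, and the difference between the M82 groups was not called in either. The 8 genes were picked by hand as examples.

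The called genes lay on all 12 chromosomes. Identifiers numbered 00, which name no chromosome, held 2 called genes of 139 tested (1.44%). On the 12 chromosomes the share of tested genes that was called ran from 0.0519% on chromosome 2, with 1 of 1927 genes, to 0.661% on chromosome 5, with 8 of 1211. Chromosome 10 followed closely with 8 of 1217 genes (0.657%), all 8 of them higher in the mutant, and chromosome 3 held the most calls, 12 of 1932 genes. On chromosome 7, 3 of 4 called genes were lower, whereas on chromosomes 9 and 11 each of the 4 called genes was higher. These counts are small and were not tested, and 54 of all 72 called genes were higher. The order changed with the rule, since DESeq2 gave its largest share on the 12 chromosomes, 3.27%, to chromosome 4.

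**Figure D5:**
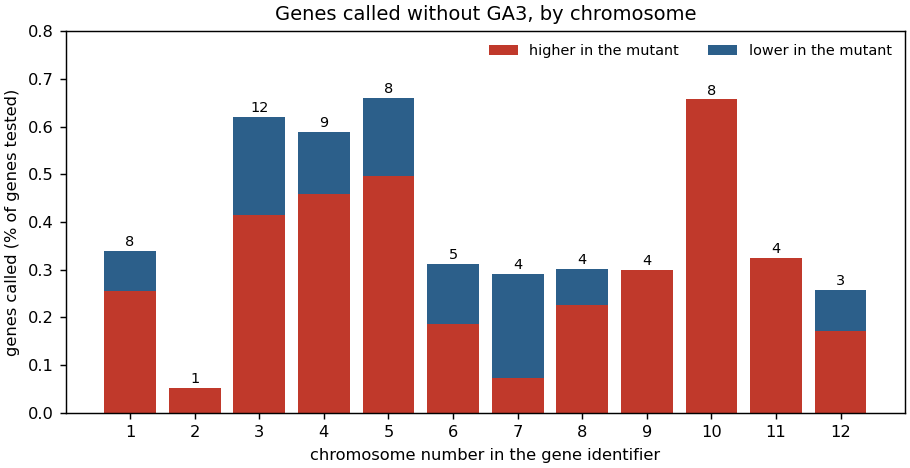
Genes called between proΔGRAS and M82 without GA3 on each chromosome, as a percentage of the genes tested there (y axis), by the chromosome number in the identifier (x axis). Red is higher and blue lower in the mutant, and the number above each bar is the count of genes called. Chromosome 2 has 1 called gene and chromosome 3 has 12.

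Some called genes were neighbours. Within 10 places of each other in identifier order lay 4 pairs of called genes that follow one another among the 72. In all 4 the direction was the same, where 54 of the 72 called genes were higher. The pairs on chromosome 4 share a gene. The number was not tested. Besides the pair on chromosome 7, Solyc01g100760.2 and Solyc01g100770.2 follow each other on chromosome 1. Solyc01g100760.2 stood at 270 and 147 CPM in proΔGRAS, against 61.8 and 40.1 CPM in M82 (log2 fold change 2.03; edgeR adjusted p = 0.0494). The other pairs were Solyc04g081770.2 with Solyc04g081790.2 and Solyc04g081790.2 with Solyc04g081870.2, on chromosome 4. Solyc04g081770.2 stood at 47.2 and 40.7 CPM in proΔGRAS, against 5.68 and 7.91 CPM in M82 (log2 fold change 2.70; edgeR adjusted p = 0.0338). Solyc04g081790.2 stood at 16.9 and 14.4 CPM in proΔGRAS, against 2.74 and 3.55 CPM in M82 (log2 fold change 2.32; edgeR adjusted p = 0.0234). With GA3 Solyc04g081770.2 still differed, at 91.7 and 46.7 CPM in proΔGRAS against 7.52 and 14.7 CPM in M82. The other genes of this run were not called with GA3. Solyc04g081790.2 had a log2 fold change of 0.49 there (edgeR adjusted p = 0.402) and Solyc04g081870.2 one of -0.13 (edgeR adjusted p = 0.862). Without proΔGRAS library 1 or 3, 0 of these 7 neighbouring genes was called (adjusted p-values of 0.102 to 0.345). Without M82 library 3, 1 was (0.0472 to 0.160).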

How the data were processed

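RNA from young leaves was prepared by Illumina's TruSeq v2 protocol and all 8 libraries shared 1 lane, per the labels' protocols. Raw counts of reads per gene were deposited by the authors, beside 8 columns that the file header calls DESeq normalized counts, which were not used. TopHat2 2.0.10, HTSeq 0.6.1p1 and DESeq2 1.6.3 are named in the submitters' processing notes. Genome build, annotation and counting options are not given in the sources used here. The table calls the mutant "null", and 3 columns carry the number 3, which no title has, so they were assigned by group.

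Genes with low counts were removed with filterByExpr (minimum count 10), leaving 18340 of 34722 genes, which hold 99.94% of the counts. A gene could pass this filter on the libraries of 1 group alone. The test was edgeR 4.0.16 in R 4.3.3 (quasi-likelihood, robust, TMM scaling), in 1 model of the 4 groups with 4 residual degrees of freedom. SE is the size of the log2 fold change over the square root of F. The procedure was tested on simulated data. Named genes were the 12 highest and 8 lowest fold changes among called genes with at least 1 CPM and groups apart, the 3 smallest p-values in each direction, and the 5 most abundant genes with no count in M82. The comparison, rules and alternatives were chosen with earlier results of these data known. Alternatives were RLE or no scaling, no filter, a filter of 5 CPM in 2 libraries, DESeq2 1.42.0, a fit of only the libraries compared, a block for the replicate number, and each library left out.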

Additional observations from a re-analysis of the deposited data

How the results depend on the processing

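The 72 calls without GA3 became 338 with no filter, 412 with DESeq2 and 166 with the replicate number as a block. They ran from 1 to 172 when 1 library was left out. Leaving out both M82 libraries with over 45% of counts in 100 genes, an alternative chosen after seeing the data, gave 41. Of the 72, 46 were called with library totals only, which moved the median log2 fold change of all genes to 0.0898, and 46 with the 4 libraries alone. With GA3 the 65 calls became 438, 37 with the stricter filter, 552, 172 with the 4 libraries alone, 200 with the block and 35 without both M82 libraries, and 0 to 236 without 1 library. The 24 genes called in both became 136, 166 with DESeq2 and 66 with the block, and 0 to 39 without 1 library. The 11 genes with no count in M82 were 4 at a minimum of 20 counts and 5 when all 4 M82 libraries had to be at 0. With 1 library left out the rule asks for less, so the number could only stay or rise. Then 24 to 112 genes met it in either direction. The largest share on the 12 chromosomes, leaving out identifiers numbered 00, was 3.27% with DESeq2 and 4.71% at an unadjusted p under 0.01, both on chromosome 4. Over 366 values of the 23 genes named by fold change or p-value under the alternatives, 262 kept the call and 104 lost it. Genes named only for having no count in M82 are not in this tally. The directions of the 23 were fixed by the choice of genes whose groups lie apart. The cause of these changes was not tested. The replicate numbers are not said to pair libraries, and the deviations of same-numbered libraries correlated with r = 0.0140 without and 0.142 with GA3 across genes, so the block is an alternative only. Genes under 1 CPM rest on few counts and had the widest errors.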

Other observations

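Some of the widest differences did not pass edgeR's test. The 5 genes below were chosen after their values were seen. Solyc01g059940.2 had the lowest log2 fold change of all genes tested, with 0 and 0.224 CPM in proΔGRAS, against 16.2 and 3.79 CPM in M82 (-6.44, SE 1.35; edgeR adjusted p = 0.0992). Solyc11g021060.1 stood at 0.363 and 0.392 CPM in proΔGRAS, against 8.82 and 4.602 CPM in M82 (edgeR adjusted p = 0.0703). Solyc09g065620.2 stood at 0.673 and 0.672 CPM in proΔGRAS and at 10.7 and 11.6 CPM in M82 (log2 fold change -4.04; edgeR adjusted p = 0.0992). Solyc09g097960.2 stood at 2.69 and 6.27 CPM in proΔGRAS, against 0.0653 and 0 CPM in M82 (edgeR adjusted p = 0.0992). Solyc01g109670.2 stood at 4.20 and 0.504 CPM in proΔGRAS and had no count in M82 (edgeR adjusted p = 0.302), and with GA3 stood at 4.45 and 0.425 CPM in proΔGRAS and again had no count in M82. DESeq2 called Solyc11g021060.1, Solyc09g065620.2 and Solyc09g097960.2 and not Solyc01g059940.2 or Solyc01g109670.2.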
